A study of Homo sapiens with 6 samples.

Results

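Alpha tubulin is encoded in the human genome by a small gene family, and the 5 genes described here are TUBA1A, TUBA1B, TUBA1C, TUBA4A and TUBA8. They were chosen by symbol, each symbol matched 1 Ensembl identifier, and they are 5 of the 38900 gene rows of the deposited table. RNA was measured by polyA-selected RNA sequencing in hTERT RPE1 cells, a telomerase-immortalised human retinal pigment epithelial line. All cells had been held confluent for 5 days to make them quiescent. They then spent 6 hours in new medium with 0.1% DMSO, the solvent (3 libraries), or with 100 nM combretastatin A4 (CA4; 3 libraries). No genotype differed between the groups, and a single cell line is the only model. The labels do not say whether the numbered libraries came from separate cultures, so the p-values measure the spread between these samples, which may be technical.

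Alpha tubulin pairs with beta tubulin, and the pairs polymerise into microtubules. CA4 binds beta tubulin at the colchicine site near its contact with alpha tubulin, and it depolymerises microtubules, which raises the pool of unpolymerised pairs. Cells are known to regulate tubulin mRNA by that pool: when it grows, the factor TTC5 recognises the first residues of nascent alpha and beta tubulin on the ribosome, and the mRNA being translated is degraded with help from SCAPER and the CCR4-NOT deadenylase. The comparison asks how each alpha tubulin transcript stood after CA4 in cells held confluent to make them quiescent.

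The coding starts are shown because the nascent first residues are what that pathway reads. They are the first 30 coding bases of each gene's principal GENCODE 29 transcript (GRCh38), written 5′ to 3′ on the coding strand, with the first 4 codons in capitals.
TUBA1A: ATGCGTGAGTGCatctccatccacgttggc
TUBA1B: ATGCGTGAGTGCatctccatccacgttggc
TUBA1C: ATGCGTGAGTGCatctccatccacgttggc
TUBA4A: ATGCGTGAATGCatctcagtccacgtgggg
TUBA8: ATGCGGGAATGCatatcagtccacgtgggc
These 30 bases were identical in TUBA1A, TUBA1B and TUBA1C. TUBA4A differed from them at 5 positions and TUBA8 at 6. In each of the 5 genes the capitals encode methionine, arginine, glutamate and cysteine. Among 20052 genes with a principal coding sequence in GENCODE 29, 9 opened with codons for these 4 residues, and 0 of the 9 were genes other than alpha tubulins. The remaining 4 were TUBA3C, TUBA3D, TUBA3E and TUBAL3. In all 5 genes the first coding exon holds only the start codon, 3 coding bases, so the next codons lie behind an intron.

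The coding ends of TUBA1C, TUBA4A and TUBA8 are shown because alpha tubulin is modified there and these isotypes differ in their last codon. Each is the last 45 coding bases with the stop codon, and the capitals mark the final amino acid codon and the stop.
TUBA1C: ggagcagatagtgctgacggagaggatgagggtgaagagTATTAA
TUBA4A: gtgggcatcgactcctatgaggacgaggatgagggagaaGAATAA
TUBA8: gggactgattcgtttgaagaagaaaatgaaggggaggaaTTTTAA
The final codon of TUBA1C was TAT, a tyrosine codon. A tyrosine at this place is removed by the vasohibins with their partner SVBP and restored by the ligase TTL. TUBA4A ended with GAA, a glutamate codon, and TUBA8 with TTT, a phenylalanine codon.

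TUBA1A (chr12:49184796-49189324, minus strand), TUBA1B (chr12:49127782-49131397, minus strand) and TUBA1C (chr12:49188736-49274603, plus strand) lie beside each other. TUBA4A lies at chr2:219249711-219278170 on the minus strand and TUBA8 at chr22:18110331-18146554 on the plus strand, all on GRCh38 as annotated by GENCODE 29. Coding sequence identity was 97.2% between TUBA1A and TUBA1B, 95.9% between TUBA1A and TUBA1C, and 96.8% between TUBA1B and TUBA1C. TUBA4A was 84.4% to 85.7% identical to these 3 genes, and TUBA8 80.0% to 81.6% identical to the other 4. This bears on the counts. Of all 50-base words in the coding sequence, 58.4% in TUBA1A, 68.3% in TUBA1B and 57.0% in TUBA1C also occurred in another of the 5 genes, against 0% in TUBA4A and TUBA8. Outside the coding sequence the share was at most 0.179%. A read that lies wholly in such a stretch cannot be placed by its sequence alone. How many reads did so depends on read length and layout and was not measured. The levels of the TUBA1 genes may thus be partly estimates, and their sum is given beside them. Without a stated use of strand, reads from opposite-strand exons also cannot be separated: TUBA1A and TUBA1C overlap on 490 exon bases. Annotated antisense genes cover 1309 exon bases of TUBA1B (36.6%), 666 of TUBA1C (14.4%) and 1847 of TUBA8 (50.7%).

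The libraries held between 19524936 and 22538004 recovered reads, and the value of 1 read, set by each library's scaling factor, lay between 0.935 and 1.12 normalized counts. The fewest reads in any library were 2013 for TUBA1A, 3276 for TUBA1B, 1204 for TUBA1C and 266 for TUBA4A, where counting error alone is 2.23%, 1.75%, 2.88% and 6.13% of the count. TUBA8 had 0 to 32 reads per library. The retinal pigment epithelial identity of the line was only partly visible: of 12 markers 7 reached a mean of 10 normalized counts, while TTR was at 0 in all 6 libraries and RPE65 stayed between 13.5 and 40.8. The 12 markers summed to 1312, 2006 and 1836 normalized counts in DMSO and 818, 1211 and 951 in CA4, without overlap, but of the 7 tested 4 had a lower and 3 a higher fitted value, with a median log2 fold change of -0.03. OTX2, a transcription factor of this cell type, fell (423, 630 and 547 with DMSO, 226, 255 and 251 with CA4; limma adjusted p = 0.0158), and MITF was called lower by DESeq2 and by limma with the replicate block, but not by limma without it (adjusted p = 0.100). Of 10 markers of other cell types 5 stayed below a mean of 10 (PTPRC, EPCAM, CDH1, RCVRN and GFAP). The other 5 reached it, TUBB3, itself a tubulin, CD68, PECAM1 and VWF among them. PECAM1 and VWF stood at 916 and 1732 normalized counts in CA4 replicate 3, and at 284 to 457 and 509 to 805 in the other libraries. That library also had the lowest alpha tubulin sum, and without it the log2 difference of the sum described below was -1.98. Of 3 keratins 0 passed in limma and KRT18 was called higher by DESeq2, and of 4 mesenchymal markers 0 passed in limma and FN1 was called higher by DESeq2. The part of these markers in the results was not tested.

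After 6 hours of CA4, the transcripts of 4 of the 5 alpha tubulin genes fell and TUBA8 was too scarce to have a direction. In the order of the replicate numbers, the normalized counts of the 5 genes summed to 49692, 34777 and 35801 with DMSO. With CA4 they summed to 9991, 10082 and 7623. Every CA4 library lay below every DMSO library, and the lowest DMSO sum was 3.45 times the highest CA4 sum. The CA4 mean was 23.0% of the DMSO mean, with a log2 difference of -2.11 (exact permutation test, two-sided, p = 0.1, below which 3 libraries against 3 cannot go). In bulk RNA scaled per library, a lower level in every cell and a smaller fraction of cells with these transcripts cannot be told apart. Summing only TUBA1A, TUBA1B and TUBA1C, which leaves exchange of reads among them without effect, gave a log2 difference of -2.14 (two-sided exact permutation p = 0.1).

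In limma's moderated test over 13928 genes, 4 of the 5 alpha tubulins passed a Benjamini-Hochberg adjusted p of 0.05 and all 4 were lower, where 1.97% of all genes tested passed as lower, 2.97% as higher and 4.94% in either direction. The same 4 were called lower by edgeR and by DESeq2 on recovered reads, which called 1.82% and 5.07% of all genes tested lower, and by limma with the replicate number as a block, which called 8.16% lower. The CA4 libraries lay entirely below the DMSO libraries in the same 4 genes, a pattern met by 13.4% of all genes tested. On the log2(normalized count + 1) scale the median log2 fold change of the 5 genes was -1.56, beside -0.01 for all genes tested. By fitted value the order of the falls was TUBA1A, TUBA1B, TUBA1C, TUBA4A, the order in which they are described. Of the neighbours in this order, the ratios of TUBA1A to TUBA1B and of TUBA1C to TUBA4A overlapped between the groups, as given below.

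TUBA1A, the isotype best known from neurons, stood at 17957, 15681 and 16427 normalized counts in the DMSO libraries, here and below in replicate order. In CA4 it was at 2244, 3611 and 2244. The DMSO libraries lay close together, with a coefficient of variation of 6.95%, and CA4 replicate 2 was the highest of its group at 29.2% variation. The CA4 mean was 16.2% of the DMSO mean. The log2 fold change was -2.66 (SE 0.18, limma adjusted p = 0.00154). Only 30 genes of all tested had a lower log2 fold change, which places TUBA1A at rank 31. By level it went from rank 128 among all genes tested in DMSO to rank 1379 in CA4.

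TUBA1B, the broadly expressed alpha tubulin of most dividing and non-dividing tissues, was at 23173, 14209 and 14651 normalized counts in DMSO and at 5140, 4361 and 3651 in CA4, in replicate order. DMSO replicate 1 stood above the other two DMSO libraries by a factor of 1.61, and no CA4 library reached any DMSO library. The CA4 mean was 25.3% of the DMSO mean, and the log2 fold change was -1.96 (SE 0.21; adjusted p = 0.00601 in limma). Without DMSO replicate 1 it was -1.73 (limma adjusted p = 0.00325).

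TUBA1C, the third gene of the chromosome 12 group, was at 7917, 4245 and 4241 normalized counts in DMSO and at 2344, 1771 and 1342 in CA4. Again DMSO replicate 1 was high, 1.87 times the mean of the other two. The CA4 mean was 33.3% of the DMSO mean, and the log2 fold change was -1.56 (SE 0.28, limma adjusted p = 0.0274). The call held without DMSO replicate 1 (log2 fold change -1.26, limma adjusted p = 0.0241) and without CA4 replicate 1 (adjusted p = 0.0488). It was lost without DMSO replicate 2, DMSO replicate 3, CA4 replicate 2 or CA4 replicate 3, with limma adjusted p between 0.0649 and 0.0885.

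The high values of TUBA1B and TUBA1C in DMSO replicate 1 came with high values of genes of dividing cells. The summed level of 8 such markers (MKI67, TOP2A, CCNB1, CDK1, PLK1, AURKA, BIRC5 and CCNA2) was 12552 in DMSO replicate 1, 6030 and 5504 in the other two DMSO libraries, and 9816, 5828 and 3321 with CA4, with none of the 8 at 0. In that library the sum was 2.18 times the mean of the other two DMSO libraries, while TUBA1A stood at 1.12 times and TUBA4A at 1.16 times. All 8 markers were lower in CA4 on average and 0 passed limma's adjusted threshold, 0 at an unadjusted p under 0.05, and 0 in edgeR or DESeq2. With the replicate number as a block, limma called TOP2A and CCNB1 lower, and the sum was lower in CA4 at each of the 3 replicate numbers. The part of dividing cells in the tubulin results was not tested. The plot of values by library shows the position of that replicate.

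**Figure D1:**
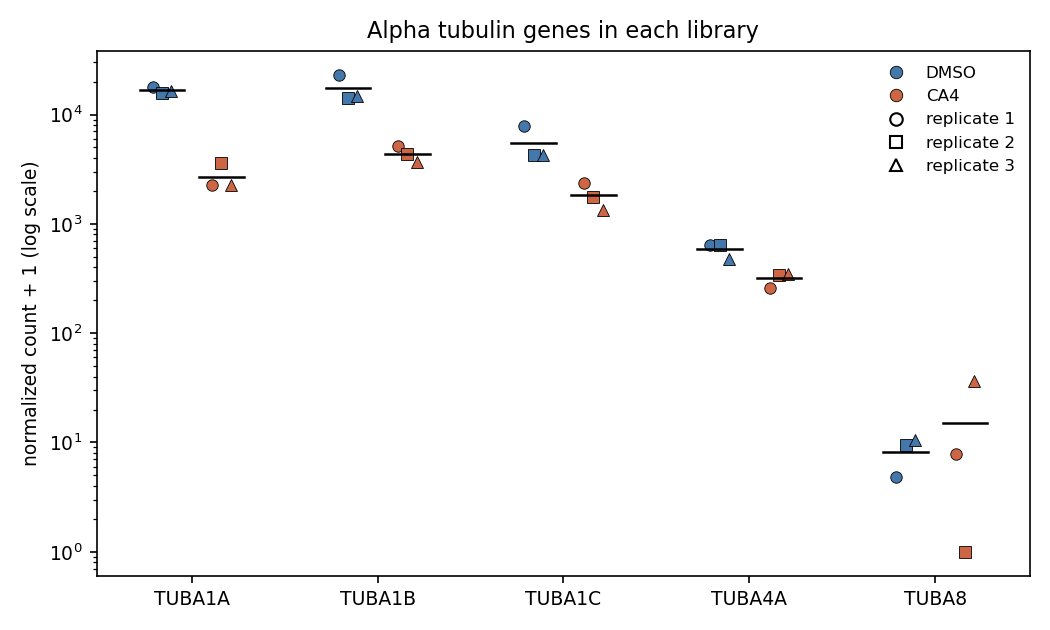
Normalized count plus 1 on a log axis for each alpha tubulin gene, with 1 point per library (blue DMSO, orange CA4, symbol shape for the replicate number) and a black bar at the group mean. For TUBA1A, TUBA1B, TUBA1C and TUBA4A all CA4 points sit below all DMSO points, while TUBA8 spans 0 to 35.7 in CA4.

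TUBA4A, whose coding sequence ends without the tyrosine codon, was at 641, 633 and 473 normalized counts in DMSO and at 257, 340 and 350 in CA4. The groups did not overlap, but the gap was narrow, with the lowest DMSO value 1.35 times the highest CA4 value. The CA4 mean was 54.2% of the DMSO mean. Its log2 fold change was -0.88 (SE 0.18, limma adjusted p = 0.0356), and the call was lost when any 1 of the 6 libraries was left out, with limma adjusted p between 0.0598 and 0.134 and a log2 fold change between -1.02 and -0.74. In GENCODE 29, 627 exon bases of TUBA4A (15.4%) also belong to STK16 on the opposite strand, which averaged 370 ± 49 normalized counts under DMSO and 395 ± 68.7 under CA4 (n = 3 per group, SD; limma adjusted p = 0.789).

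TUBA8, an isotype known from muscle and testis, was at 3.86, 8.41 and 9.50 normalized counts in DMSO and at 6.77, 0 and 35.7 in CA4. The CA4 libraries lay on both sides of the DMSO libraries, and the mean of 14.1 in CA4 came mostly from replicate 3, which held 32 reads. A count of 0 allows up to 3 reads, or 3.37 normalized counts in CA4 replicate 2, for counting error only. The fitted log2 fold change was -0.25 (SE 1.24, limma adjusted p = 0.931) although the mean was higher in CA4, so no direction was detectable at this depth. Of the 50-base words of its coding sequence 99.9% also occur in transcripts of PEX26, a peroxisome gene on the same strand that runs into TUBA8, and PEX26 was at 642 ± 88.5 and 679 ± 112 normalized counts in DMSO and CA4 (SD, n = 3 each). How many TUBA8 reads came from such transcripts was not tested.

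**Figure D2:**
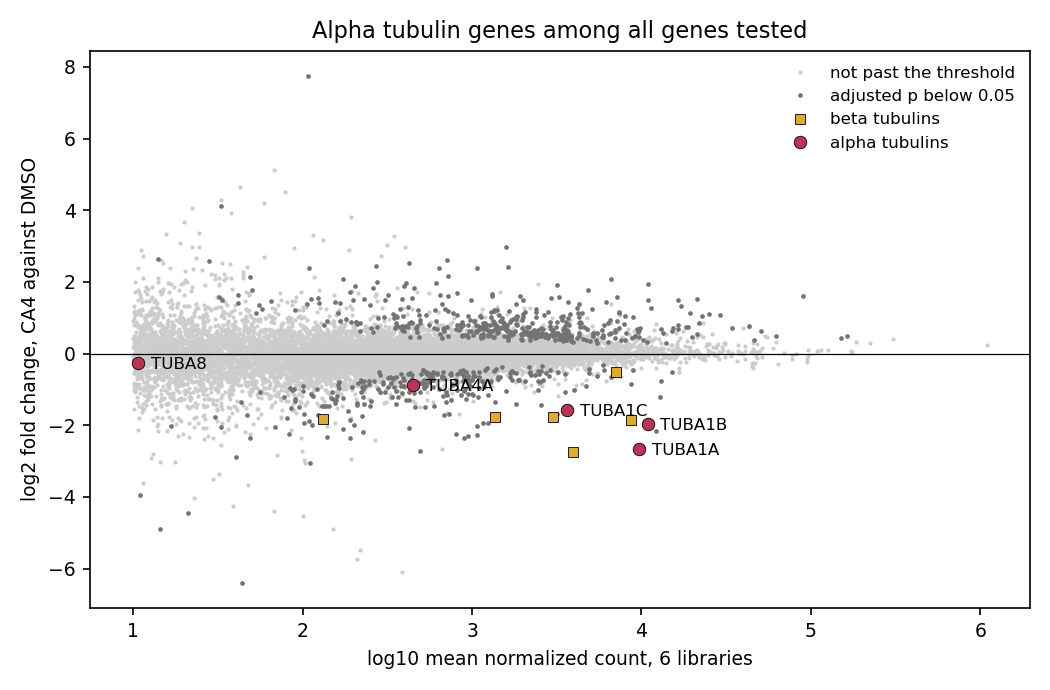
Log2 fold change (CA4 against DMSO) against log10 mean normalized count for all 13928 genes tested, with alpha tubulins as red circles, beta tubulins as yellow squares, and dark dots for genes past the adjusted threshold. TUBA1A, TUBA1B and TUBA1C sit at high counts with log2 fold changes from -2.66 to -1.56, TUBA4A at -0.88, and TUBA8 at the low end of the count axis.

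Other alpha tubulin loci added almost nothing. The table had 20 further rows with alpha tubulin symbols, pseudogenes included. Of these 9 had any read and 0 reached a mean of 10 normalized counts, and together they held 41 reads in DMSO and 55 in CA4, beside 126353 and 26163 reads of the 5 genes. TUBA3D was at 1.87 to 9.50 normalized counts in DMSO and 6.69 to 15.5 in CA4. TUBAP2, a pseudogene that shares 22.3% of the 50-base words of TUBA1B, stayed between 0.966 and 5.61.

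To compare levels between genes, the normalized counts were divided by the length of the principal transcript. Per kilobase of transcript, the DMSO level was 10660 ± 3105 for TUBA1B, 8714 ± 606 for TUBA1A, 1822 ± 707 for TUBA1C, 269 ± 43.9 for TUBA4A and 3.60 ± 1.48 for TUBA8 (SD, n = 3 each). TUBA1B and TUBA1A, the neighbours at the top, did not differ beyond their spread in DMSO. In CA4 the level per kilobase was 2695 ± 458 for TUBA1B, 1410 ± 412 for TUBA1A, 606 ± 167 for TUBA1C, 146 ± 23.6 for TUBA4A and 7.01 ± 9.39 for TUBA8 (SD, n = 3 each). In CA4 the lowest TUBA1B library, at 2244 per kilobase, lay above the highest TUBA1A library, at 1885. Of the other neighbours, TUBA1A and TUBA1C, TUBA1C and TUBA4A, and TUBA4A and TUBA8 did not overlap in either group. The transcript length used for TUBA1C, 3001 bases, is longer than the 1627 of TUBA1B, and the isoforms present were not measured, so its level per kilobase depends on that choice. Per kilobase of coding sequence the order of the means was the same, but in CA4 the highest TUBA1C library, at 1736, lay above the lowest TUBA1A library, at 1655.

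In the summed alpha tubulin signal, every CA4 library had a lower share of TUBA1A and higher shares of TUBA1C and TUBA4A than any DMSO library. The exact permutation test used for shares cannot go below p = 0.1 here. The shares also depend on how reads from stretches shared by the TUBA1 genes were divided. TUBA1A held 36.1%, 45.1% and 45.9% of the summed signal with DMSO, but 22.5%, 35.8% and 29.4% with CA4. The CA4 shares were all lower, though the gap between DMSO replicate 1 and CA4 replicate 2 was small. TUBA1A accounted for 45.3% of the normalized counts lost from the sum, TUBA1B for 42.0%, TUBA1C for 11.8% and TUBA4A for 0.864%.

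TUBA1B held 46.6%, 40.9% and 40.9% of the sum in DMSO and 51.4%, 43.3% and 47.9% in CA4, and these groups overlapped. The TUBA1C shares of 15.9%, 12.2% and 11.8% with DMSO were all below those with CA4, which came to 23.5%, 17.6% and 17.6%. TUBA4A held 1.29%, 1.82% and 1.32% in DMSO and 2.57%, 3.37% and 4.59% in CA4, also without overlap. TUBA8 stayed at or below 0.468%.

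As means, the share of TUBA1A was 42.4% ± 5.41 in DMSO and 29.2% ± 6.68 in CA4, and that of TUBA1B 42.8% ± 3.32 and 47.5% ± 4.1 (SD, n = 3 each). TUBA1C had 13.3% ± 2.26 and 19.5% ± 3.39, and TUBA4A 1.48% ± 0.297 and 3.51% ± 1.02 (SD, n = 3 each). The two-sided exact permutation p was 0.1 for TUBA1A, TUBA1C and TUBA4A, the smallest possible, or 0.167 adjusted over the 5 genes. It was 0.2 for TUBA1B and 0.4 for TUBA8 in the same exact test. The difference in the TUBA1B share, 4.73 percentage points, was 2.77 without CA4 replicate 1, and that of TUBA8, 0.159, was 0.0144 without CA4 replicate 3. Computed per kilobase of transcript, the TUBA1A groups overlapped, with 35.3% in DMSO replicate 1 and 35.5% in CA4 replicate 2, and the exact permutation p was 0.2. On that scale TUBA1C held 8.29% ± 1.43 under DMSO and 12.4% ± 2.22 under CA4 (n = 3 per group, SD), a difference of 4.07 percentage points in place of 6.21, still without overlap.

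**Figure D3:**
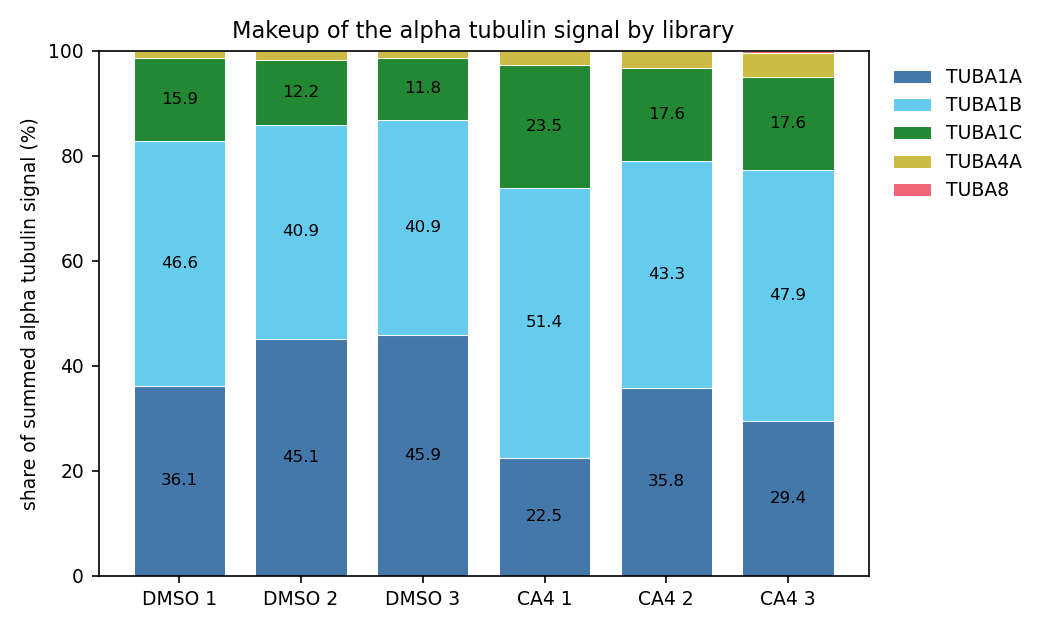
Share of the summed alpha tubulin signal (percent, bars from 0 to 100) held by each gene in each of the 6 libraries; shares are of normalized counts, not per length. The TUBA1A part is 36.1% to 45.9% in DMSO and 22.5% to 35.8% in CA4, and the TUBA1C and TUBA4A parts are larger in every CA4 library.

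Whether the genes fell by different amounts was also tested pair by pair, on the log2 ratio of 2 genes within a library, in which the library's scaling factor cancels. There were 6 pairs among the 4 abundant genes. TUBA8 entered no pair because 1 library was at 0. The log2 ratio of TUBA1A to TUBA4A was 4.81, 4.63 and 5.12 in DMSO and 3.13, 3.41 and 2.68 in CA4, a difference of -1.78 with no overlap. That of TUBA1A to TUBA1C went from 1.18, 1.89 and 1.95 to -0.06, 1.03 and 0.74, a difference of -1.10, again with no overlap.

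For TUBA1B to TUBA4A the DMSO libraries gave log2 ratios of 5.18, 4.49 and 4.95, and the CA4 libraries 4.32, 3.68 and 3.38, a difference of -1.08. For TUBA1B to TUBA1C the log2 ratio averaged 1.69 ± 0.13 with DMSO and 1.29 ± 0.16 with CA4 (SD of 3 libraries), a difference of -0.40. Neither pair overlapped between groups. These 4 pairs each had a two-sided exact permutation p of 0.1, or 0.15 adjusted over the 6 pairs.

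The 2 remaining pairs overlapped between groups. TUBA1A to TUBA1B gave log2 ratios of -0.37, 0.14 and 0.17 in DMSO and -1.20, -0.27 and -0.70 in CA4, a difference of -0.70 (two-sided exact permutation p = 0.2). TUBA1C to TUBA4A gave 3.63, 2.75 and 3.16 against 3.19, 2.38 and 1.94, a difference of -0.68 (two-sided exact permutation p = 0.3). Single libraries moved both values: TUBA1A to TUBA1B was -0.47 without CA4 replicate 1, and TUBA1C to TUBA4A was -1.02 without CA4 replicate 1 and -0.39 without CA4 replicate 3. All of these ratios depend on how reads from stretches shared by the TUBA1 genes were divided, while the reads of TUBA4A were not open to such exchange with the other members.

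**Figure D4:**
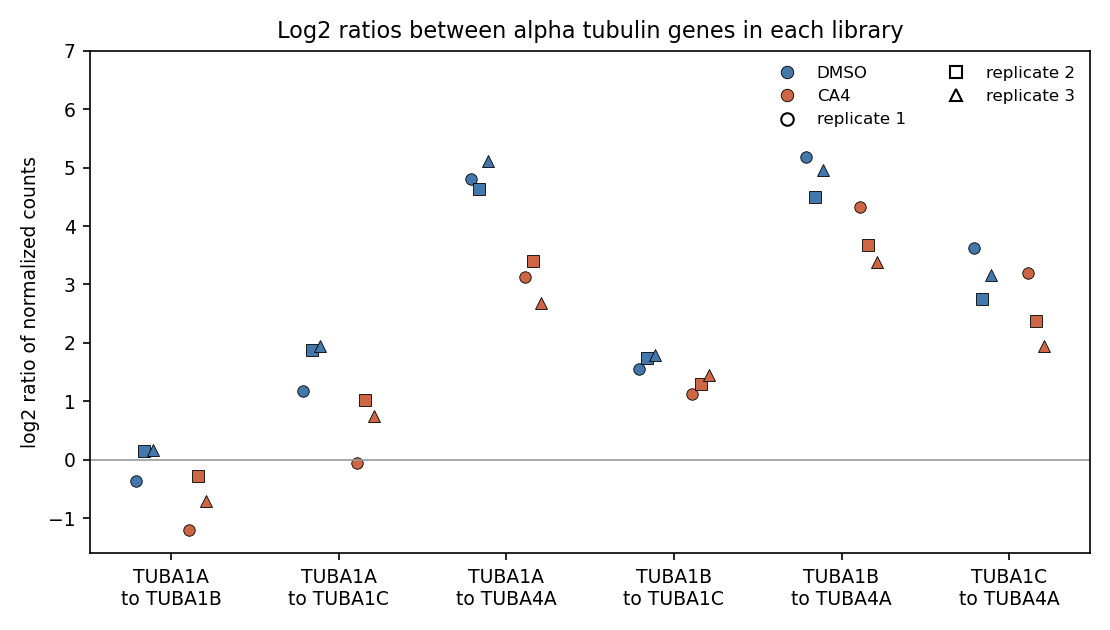
Log2 ratio of normalized counts for each of the 6 pairs of alpha tubulin genes, with 1 point per library (blue DMSO, orange CA4, symbol shape for the replicate number). The groups are apart for TUBA1A to TUBA1C, TUBA1A to TUBA4A, TUBA1B to TUBA1C and TUBA1B to TUBA4A, and overlap for the other two pairs.

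The beta tubulins, the partners of alpha tubulin in the microtubule, carry the other recognised opening. In GENCODE 29, 10 genes opened with codons for methionine, arginine, glutamate and isoleucine, and 0 of them lay outside the beta tubulin family. Of these 6 were tested, all 6 had a lower fitted value, as did 51.1% of all genes tested, and 5 passed limma's adjusted threshold as lower, beside 1.97% of all genes tested. The median log2 fold change was -1.80, against -1.56 for the 5 tested genes with the alpha opening. The exception in limma was TUBB6, with a log2 fold change of -0.51 (limma adjusted p = 0.105). DESeq2 and limma with the replicate block called all 6, and edgeR called 5. TUBB3 had a log2 fold change of -2.73, TUBB2A of -1.76 and TUBB of -1.85 (adjusted p = 2.87e-04, 0.00176 and 0.00235 in limma). TUBA1A and TUBB3 were thus the alpha and beta genes with the lowest log2 fold changes among those tested.

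The genes whose profiles were most like that of the summed alpha tubulin signal were sought among the 11685 genes, alpha tubulins left out, that averaged 50 normalized counts or more. Likeness was the root mean square difference of centred log2 values over the 6 libraries. The smallest differences were 0.093 for ENSG00000227739, 0.158 for TUBB, 0.198 for TUBB2B, 0.202 for TUBB4B and 0.240 for TUBB2A, beside a median of 1.08 for all these genes. ENSG00000227739 has no symbol in the tables used and averaged 20028 ± 3015 normalized counts under DMSO and 4496 ± 457 under CA4 (n = 3 per group, SD). Whether this row is a gene separate from TUBB, or shares its reads, was not tested. Among the members, the same difference from their own sum was 0.122 for TUBA1B, 0.337 for TUBA1C, 0.356 for TUBA1A and 0.679 for TUBA4A. TUBA8, at 0 to 32 reads per library, was too scarce for this measure.

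Among the genes that regulate, fold or modify alpha tubulin, 0 passed limma's adjusted threshold in either direction, where 4.94% of all genes tested passed. With the replicate number as a block, limma called CNOT1, TTLL5 and the folding genes PFDN2, TCP1 and CCT5. Of 14 genes for the regulation of tubulin mRNA, among them TTC5, SCAPER and subunits of CCR4-NOT, all were tested and 0 passed limma's adjusted threshold, with 2 at an unadjusted p under 0.05 (23% of all genes tested had one) and 0 in edgeR and in DESeq2. Their log2 fold changes lay between -0.34 and 0.38, with a median of -0.01. The smallest adjusted p belonged to CNOT7, a catalytic deadenylase, which averaged 1392 ± 154 normalized counts under DMSO and 1116 ± 21.6 under CA4 (n = 3 per group, SD; limma adjusted p = 0.125), followed by CNOT1 and CNOT9 (limma adjusted p = 0.210 and 0.259).

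Of 20 genes for folding, the CCT chaperonin, prefoldin and the tubulin cofactors, all were tested and 0 passed in limma, with 2 at an unadjusted p under 0.05 and 0 in edgeR and in DESeq2. Their log2 fold changes lay between -0.16 and 0.35, with a median of 0.06, and 13 of 20 had a higher fitted value, as did 48.9% of all genes tested. PFDN2, a prefoldin subunit, TCP1 and CCT5, both chaperonin subunits, had the smallest limma adjusted p, at 0.123, 0.124 and 0.353, with log2 fold changes of 0.35, 0.26 and 0.29. Limma with the replicate block called all 3 of them.

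Of 18 enzymes that act on alpha tubulin residues, such as the acetyltransferase ATAT1, the tyrosine ligase TTL and the vasohibins, 16 were tested. In limma 0 passed, 1 had an unadjusted p under 0.05, 0 passed in edgeR and 1, TTLL5, in DESeq2. The log2 fold changes lay between -0.85 and 0.48, with a median of -0.09, and 12 of 16 had a lower fitted value, as did 51.1% of all genes tested. TTLL5, a glutamylase, averaged 620 ± 84.3 normalized counts under DMSO and 424 ± 30.3 under CA4 (n = 3 per group, SD), and its log2 fold change was -0.54 (limma adjusted p = 0.0576). AGBL5, a deglutamylase, and TTLL11, a polyglutamylase, followed (limma adjusted p = 0.256 and 0.332). A p above the threshold does not show that a gene stayed the same.

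**Figure D5:**
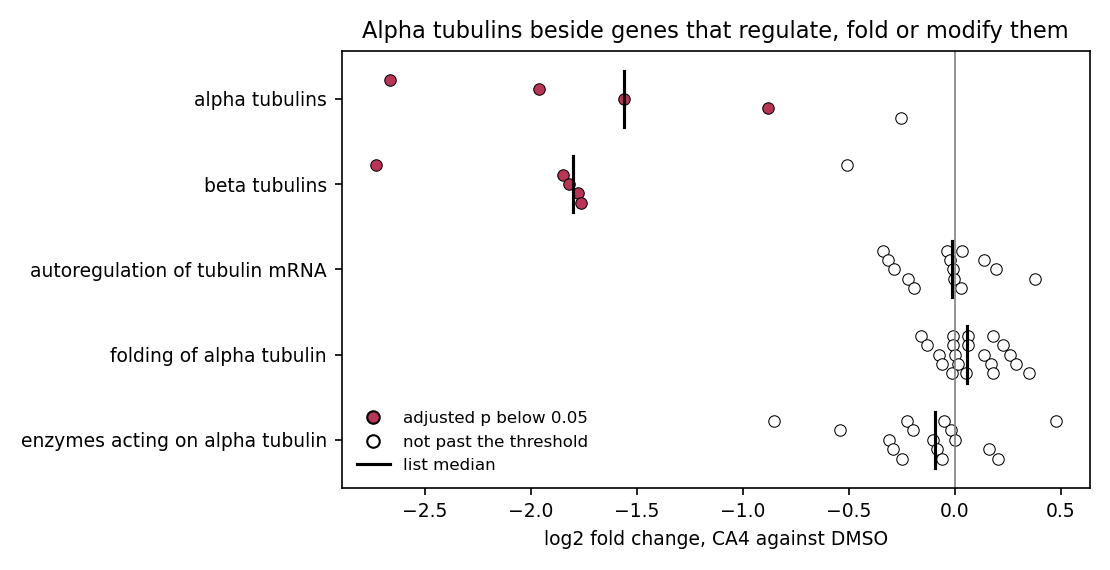
Log2 fold change (CA4 against DMSO) of each tested gene in 5 lists, filled where the limma adjusted p was below 0.05, with a black bar at the list median. The alpha and beta tubulins lie to the left of 0 with medians of -1.56 and -1.80, and the other 3 lists lie around 0 with medians of -0.01, 0.06 and -0.09.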

How the data were processed

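The deposited table holds a normalized count signal for 38900 Ensembl gene IDs in 6 libraries, 1 column each per the file headers, and the deposited values are signal on a scale that differs from whole reads by 1 factor per library, judged from the values. The submitters' processing notes name Trim Galore 0.6.6, FastQC 0.12.1, STAR 2.7.9a, Salmon 1.8.0, DESeq2 1.44.0 and GRCh38, without roles; annotation release and strand use are not given in the sources used here. Within a tolerance of 0.01, 100% of values were whole multiples of the column's value of 1 read. These recovered reads may be rounded estimates. Symbols came from the supplied gene table (35803 IDs) and, for 29 more IDs, from GENCODE 29.

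The 13928 genes averaging 10 normalized counts or more were tested on log2(normalized count + 1) with limma 3.58.1 in R 4.3.3 (group only, mean trend, two-sided, Benjamini-Hochberg over all tested genes, threshold 0.05). Shares, sums and log2 ratios per library were compared by exact permutation with scipy 1.17.1. On recovered reads, edgeR 4.0.16 called 643 genes and DESeq2 1.42.0 called 1613, against 688 in limma. On simulated data made from the 13928 genes for CA4 against DMSO, with 200 changed 2-fold, limma recovered 51.5% with 5.51% of calls false, limma with the replicate block 49.5% with 12.4%, edgeR 51% with 5.56%, and DESeq2 66% with 22.8%. The simulation was a single draw with no replicate effect in it. It therefore cannot tell how the block performs where same-numbered libraries are alike. Sequences, lengths and 50-base words came from GENCODE 29. Named genes are the 5 alpha tubulins, other alpha tubulin rows with a mean of at least 10 (0 rows; TUBA3D and TUBAP2 were named after their values were seen), the 3 genes of each list with the smallest adjusted p, and the 5 nearest profiles. STK16 and PEX26 were named for overlap, and the marker genes and the genes sharing an opening by their lists. The members and lists were chosen with earlier results of these data known. Alternatives were other pseudocounts, filters, scalings and variance settings, the count models, the replicate block, other denominators of the shares, and leaving out each library. Some sequences and a marker gene are not reported here.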

Additional observations from a re-analysis of the deposited data

How the results depend on the processing

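TUBA1A and TUBA1B kept their direction and their call in all 12 other settings and without any 1 library, where their log2 fold changes ran from -2.89 to -2.55 and from -2.09 to -1.73. TUBA1C ran from -1.76 to -1.26 and TUBA4A from -1.02 to -0.74 without 1 library. Without the variance trend TUBA1C (-1.56, limma adjusted p = 0.0812) and TUBA4A (-0.88, adjusted p = 0.0829) lost their calls, leaving 2 of the 5 genes. In that setting 4 beta tubulins were called, against 5 in the main fit. TUBA8 turned to 0.16 with a pseudocount of 5, 0.94 in edgeR and 0.96 in DESeq2, and ran from -1.49 to 1.11 without 1 library, at 0 to 32 reads per library. Without 1 library 2 to 3 of the 5 genes were called.

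Scaling to the same total shifted the median log2 fold change of all genes by -0.10 and gave 523 lower genes against 275 (34.8% of calls higher against 60.0%). The total of 688 genes (275 lower, 413 higher) became 103 (52 and 51) without the variance trend, 1613 (706 and 907) in DESeq2, and 81 to 994 (31 to 389 and 50 to 605) without 1 library. The enzymes acting on alpha tubulin went from 0 calls to 1 with a mean of at least 50, the same 75th percentile, the same total or DESeq2. The mRNA regulation list went from 0 to 1 without DMSO replicate 1, within a range of 0 to 1. The causes were not tested.

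With a replicate block, limma called 2397 genes in all (1137 lower, 1260 higher) and gave calls for 1 gene of mRNA regulation, 3 of folding, 1 enzyme and 2 of the 8 markers of dividing cells (TOP2A and CCNB1), and added TUBB6, MITF, KRT18, FN1 and COL1A1; it changed no call of the 5 alpha tubulins. The main fits did not pair the libraries, as deviations of same-numbered libraries correlated at 0.202, 0.159 and 0.0589, not all above 0.1. However, all of these were positive and 5 of 6 libraries correlated best with their own number, so pairing by number remains possible. Permuting within numbers gave an exact p of 0.25 at the least, the smallest it allows. Without 1 library the share differences ran from -16.4 to -9.75 percentage points for TUBA1A, 2.77 to 6.87 for TUBA1B, 4.25 to 7.51 for TUBA1C and 1.4953 to 2.5045 for TUBA4A. All differences in sums, shares and pair ratios kept their direction in every setting run.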
